A study of Mus musculus with 36 samples.

Results

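The coats, enzymes and fusion factors of the hepatic lipid droplet are described here by 10 genes, chosen by name from the gene symbols of the count table: Plin2, Plin4, Plin5, Cidec, Cideb, Pnpla2, Pnpla3, Lpin1, Dgat2 and Abhd6. They are 10 of the 54532 genes listed, and all 10 were among the 17994 genes with enough counts to be tested (a sum of at least 100 over all libraries). RNA was sequenced from the livers of 36 male mice on chow, 2 to 3 months old, kept in 12 h of light and 12 h of darkness. The allele, Thrbtm1Df, removes both isoforms of thyroid hormone receptor beta (THRB) in the whole body and was bred on the C57BL/6NCrl background. The 18 controls, called THRBWT, carried 1 copy of the allele (THRB+/-), so no mouse was free of it, and the 18 knockouts, called THRBKO, carried it on both chromosomes (THRB-/-). From ZT2 to ZT22, where ZT0 is lights on (ZT, zeitgeber time), 3 mice of each genotype were taken every 4 h.

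The liver stores fatty acids as triglyceride in droplets with a phospholipid shell. Lipins and diacylglycerol acyltransferases carry out the last steps of triglyceride synthesis, perilipins and CIDE proteins coat and enlarge the droplet, and lipases of the PNPLA and ABHD families break its lipids down again. Droplet content in liver follows feeding and fasting, and the genes of this pathway are targets of nuclear receptors and of the circadian clock.

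Each library held between 29063273 and 42530551 counts assigned to genes. Hepatocyte markers summed to between 64288 and 96700 CPM (counts scaled to TMM library sizes) in every library, while the sum of 7 adipocyte markers, among them the adipocyte coat gene Plin1, stayed between 0.0342 and 0.385 CPM, and Lep was at 0 in all 36 libraries. Sums of the other marker lists overlapped between the genotypes. Cholangiocyte markers lay between 34.2 and 63.6 CPM in THRBWT and between 27.2 and 51.4 CPM in THRBKO livers, and erythroid markers between 203 and 862 CPM and between 130 and 557 CPM. All 5 cholangiocyte, all 3 erythroid and all 5 Kupffer cell markers had log2 fold changes below 0 (medians -0.19, -0.37 and -0.06). None of these markers passed the test, and their part in the results that follow was not tested. In whole liver, fewer cells of a type and less RNA per cell cannot be told apart. Thrb itself was counted at 28.9 ± 3.69 CPM (SD, n = 18) in THRBWT and 31.5 ± 2.70 CPM (SD, n = 18) in THRBKO livers, so its gene count did not separate the genotypes. The clock genes Arntl and Dbp peaked at ZT22.0 and ZT9.92 in THRBWT and at ZT22.2 and ZT10.4 in THRBKO livers.

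The region around the transcription start was read for 9 of the 10 genes from RefSeq (GRCm38.p6), as windows of 250 bases before and 50 bases after each annotated start. Dgat2 had no window. The search, on both strands, covered the E-box CACGTG bound by clock transcription factors, the nuclear receptor core motif AGGTCA and the D-box TTATGTAA. Shown are Abhd6 and Pnpla2, the genes that passed the genotype test below, Pnpla2 close to its threshold. A pair with opposite daily profiles, Plin2 and Lpin1, is shown too. The windows are printed 5′ to 3′ on the strand of the gene, with motif matches in capitals.
Plin2 (chr4:86670010-86670309, minus strand): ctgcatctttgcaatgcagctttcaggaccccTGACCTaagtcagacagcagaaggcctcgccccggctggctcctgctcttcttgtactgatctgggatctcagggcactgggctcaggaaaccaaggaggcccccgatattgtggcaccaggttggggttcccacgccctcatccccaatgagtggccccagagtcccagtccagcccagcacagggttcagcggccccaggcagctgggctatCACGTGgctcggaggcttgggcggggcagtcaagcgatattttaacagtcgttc
Lpin1 (chr12:16610917-16611216, minus strand): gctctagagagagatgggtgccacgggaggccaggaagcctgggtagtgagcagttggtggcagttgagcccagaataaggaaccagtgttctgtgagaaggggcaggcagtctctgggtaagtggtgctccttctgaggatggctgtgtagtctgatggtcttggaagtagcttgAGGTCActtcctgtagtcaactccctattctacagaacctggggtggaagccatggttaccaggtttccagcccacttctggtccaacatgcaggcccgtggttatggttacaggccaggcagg
Pnpla2 (chr7:141454938-141455237, plus strand): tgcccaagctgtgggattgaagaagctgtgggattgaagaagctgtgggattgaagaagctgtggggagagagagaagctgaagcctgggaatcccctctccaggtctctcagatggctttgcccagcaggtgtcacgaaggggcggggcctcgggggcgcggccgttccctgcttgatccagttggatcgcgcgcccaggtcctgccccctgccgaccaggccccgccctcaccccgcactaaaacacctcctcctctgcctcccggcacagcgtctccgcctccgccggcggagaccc
Abhd6 (chr14:8002716-8003015, plus strand): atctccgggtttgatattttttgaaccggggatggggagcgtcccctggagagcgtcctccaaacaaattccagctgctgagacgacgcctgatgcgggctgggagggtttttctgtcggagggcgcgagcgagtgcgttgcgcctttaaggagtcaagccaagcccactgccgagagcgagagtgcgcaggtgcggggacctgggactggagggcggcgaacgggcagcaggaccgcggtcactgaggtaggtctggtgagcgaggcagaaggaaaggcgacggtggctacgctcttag

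The Plin2 window held the only E-box among the 12 windows of these genes, starting at base -4 from the start of transcription, and an AGGTCA core on the opposite strand at base -218. AGGTCA cores were also found in the Lpin1 window, at base -74, and in both Plin5 windows, at bases -170 and 14. Across all 32851 windows of the annotation, 7.15% held an E-box, 16.3% an AGGTCA core and 0.938% a D-box. No D-box was found in the 12 windows, and no pair of AGGTCA cores in one direction 1 base or 4 bases apart, arrangements present in 0.0396% and 0.0152% of all windows. The windows of Pnpla2 and Abhd6 held none of the motifs, which says only that these letters are not there.

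The order of the 10 genes by level was set per kilobase of gene model. In THRBWT livers Dgat2, the acyltransferase that adds the last fatty acid to triglyceride, stood highest at 185 ± 34.2 CPM per kb (SD, n = 18), followed by the droplet coat gene Plin2 at 98.7 ± 31.6 CPM per kb. Cideb, Pnpla2 and Plin5 followed at 29.4 ± 2.74, 26.7 ± 8.08 and 26.6 ± 7.54 CPM per kb, with overlapping spreads. The place of Cideb is uncertain, since 1136 of the 1488 bases of its gene model are shared with Nop9 on the opposite strand. Abhd6 and Lpin1, at 15.8 ± 3.08 and 12.9 ± 13.5 CPM per kb, could not be ranked beyond their spread either. Cidec at 2.36 ± 0.785, Plin4 at 1.53 ± 0.773 and Pnpla3 at 0.862 ± 0.849 CPM per kb were the lowest. In THRBKO livers Pnpla2 stood above Cideb and Lpin1 above Abhd6, by less than their SDs, and the rest of the order was the same, from Dgat2 at 188 ± 29.2 to Pnpla3 at 1.17 ± 1.56 CPM per kb.

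**Figure D1:**
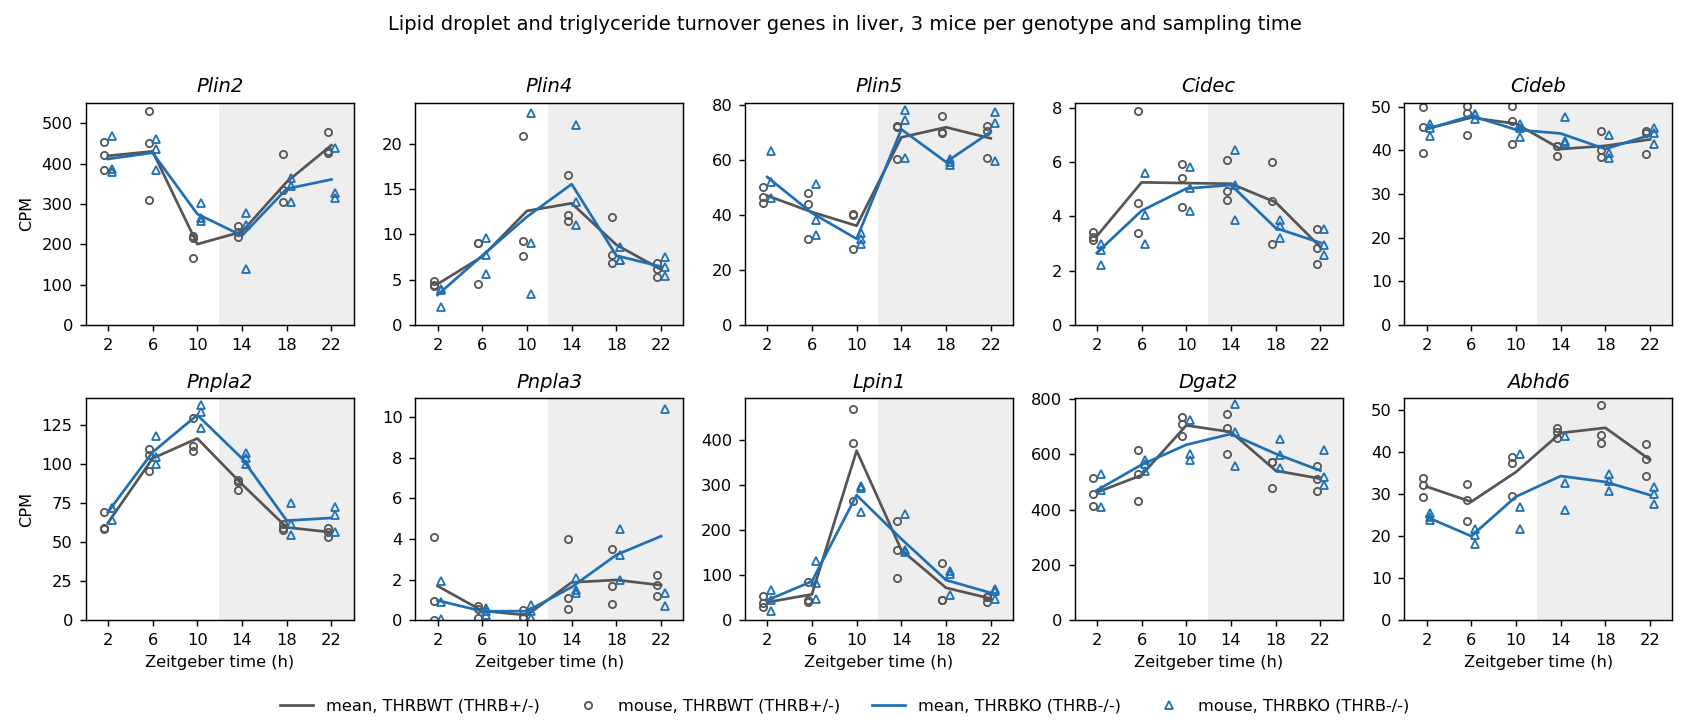
CPM of each gene (vertical axes, each from 0) by zeitgeber time, with the 3 mice per genotype and sampling time as points and their means as lines; shading marks the dark phase. THRBKO points lie below THRBWT points for Abhd6 at ZT2, ZT6, ZT18 and ZT22, Plin4 and Cidec at ZT2 and Plin5 at ZT18. They lie above them for Plin2 at ZT10 and Pnpla2 and Cideb at ZT14. The share of such separations over all genes is not given here. The 1 high THRBKO mouse lifts the Pnpla3 mean at ZT22 to 4.14 CPM.

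Between genotypes, 2 of the 10 genes were called. Abhd6 was lower and Pnpla2 higher in THRBKO livers when sampling time was in the model (quasi-likelihood test of edgeR, p adjusted by Benjamini-Hochberg over 17994 genes, threshold 0.05). The same test called 171 genes, 0.95% of those tested. The 10 genes were chosen with earlier results of these data known, so their calls cannot be weighed against this share. The study of these mice already lists Abhd6 among genes with a lower mean level over the day in knockouts. With sampling times pooled and no term for time, 65 genes (0.361%) and none of the 10 were called, of which 1 had an unadjusted p under 0.05 (Abhd6). The Wald test of DESeq2 on the pooled data called 99 genes, and among the 10 it called Abhd6 (adjusted p = 0.0357).

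Abhd6 encodes a membrane hydrolase of monoacylglycerol and other lipids. In THRBWT livers its CPM ranged from 23.7 to 51.1 (median 37.9, mean 37.3 ± 7.28, n = 18), and in THRBKO livers from 18.1 to 44.0 (median 27.3, mean 28.5 ± 6.79, n = 18). At ZT18 the controls had 51.1, 44.0 and 42.2 CPM and the knockouts 33.1, 34.9 and 30.9 CPM. At ZT6 the values were 28.5, 32.4 and 23.7 against 20.2, 21.8 and 18.1 CPM. The THRBKO mean was lower at 6 of 6 times, all 3 knockouts lay below all 3 controls at ZT2, ZT6, ZT18 and ZT22, and the groups overlapped at ZT10 and ZT14, where 1 knockout each reached 39.6 and 44.0 CPM. The log2 fold change was -0.39 (SE 0.062, adjusted p = 0.000294), a ratio of 0.764, with 95% limits of -0.52 and -0.26.

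The gene kept its call when each of the 36 libraries was left out in turn, with log2 fold changes from -0.43 to -0.37, and with DESeq2 (adjusted p = 1.57e-06). Without the 12 mice whose label ends in a, the log2 fold change was -0.39 and the adjusted p 0.0521. Abhd6 lies on chr14:8002902-8056763 (GRCm38), 9.60 Mb from Thrb. Of 197 tested genes within 20 Mb of Thrb, Abhd6 included and Thrb left out, 10 were called (5.08%; 4 higher, 6 lower, Abhd6 among the latter), against 161 of 17796 genes elsewhere (0.905%). The genotype at Thrb and that of the flanking chromosome cannot be told apart in these mice.

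Pnpla2 encodes adipose triglyceride lipase, the enzyme that starts the breakdown of stored triglyceride. Its CPM ranged from 53.5 to 129 in THRBWT (mean 80.7 ± 24.4, n = 18) and from 54.3 to 138 in THRBKO livers (mean 90.0 ± 27.0, n = 18). At ZT14 the controls had 88.2, 89.5 and 83.1 CPM and the knockouts 104, 107 and 100 CPM, and at ZT10 108, 111 and 129 against 133, 123 and 138 CPM. The THRBKO mean was higher at 6 of 6 times, but the groups were apart at ZT14 alone and overlapped at the other 5 times.

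The log2 fold change of Pnpla2 was 0.16 (SE 0.040, adjusted p = 0.0410), a ratio of 1.12. The call lay close to the threshold: it held in 14 of the 36 fits that left out 1 library (log2 fold change 0.14 to 0.17, adjusted p 0.0127 to 0.0770). Without the THRBKO mouse at 72.7 CPM at ZT22, the adjusted p was 0.0770. Of 6 other fits to all mice 4 kept the call, among them the likelihood ratio test of DESeq2 (adjusted p = 0.0123) and edgeR with a replicate block (adjusted p = 0.0178). Testing without a filter on low counts (adjusted p = 0.0606), adding a term for RNA integrity (adjusted p = 0.0608) or leaving out the mice of any of the 3 letters a, b and c (adjusted p 0.110 to 0.473) ended the call.

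**Figure D2:**
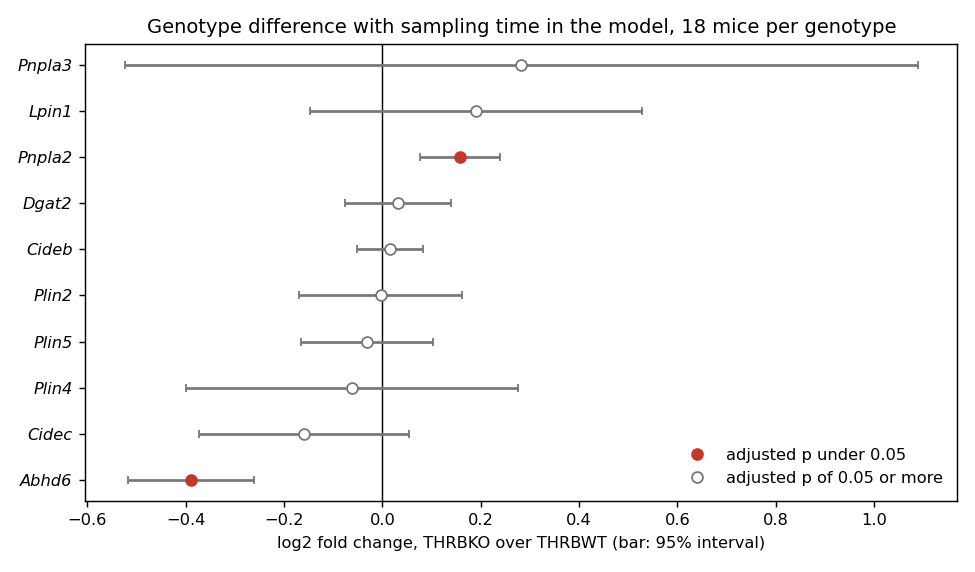
Log2 fold change of each gene in THRBKO over THRBWT livers (horizontal axis) with sampling time in the model; bars are 95% intervals and filled points have an adjusted p under 0.05. Abhd6 at -0.39 and Pnpla2 at 0.16 are filled, and the interval of Pnpla3 runs from -0.52 to 1.09.

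For the other 8 genes the log2 fold changes lay between -0.16 and 0.28 and none passed the test, so differences within their intervals remain possible. The intervals were narrow for Cideb (-0.05 to 0.08), Dgat2 (-0.08 to 0.14), Plin5 (-0.17 to 0.10) and Plin2 (-0.17 to 0.16). They were wide for Plin4 (-0.40 to 0.28), Cidec (-0.37 to 0.05), Lpin1 (-0.15 to 0.53) and Pnpla3 (-0.52 to 1.09). The median log2 fold change was 0.01 over the 10 genes and -0.00 over all tested genes.

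At single sampling times, with 3 mice against 3, none of the 10 genes was called by edgeR. From ZT2 to ZT22 the test called, in the order of the times, 5, 2, 3, 3, 4 and 4 genes, which are 0.0278%, 0.0111%, 0.0167%, 0.0167%, 0.0222% and 0.0222% of those tested. Of the 10 genes, 1 or 2 had an unadjusted p under 0.05 at each time, as did 741 to 977 of all genes. Abhd6 accounted for 5 of these times, Pnpla2 for ZT14 and ZT22, and Plin2 for ZT10, when the knockouts had 301, 258 and 265 CPM and the controls 216, 219 and 165 CPM. No gene passed the test of an interaction between genotype and sampling time (0 genes called by edgeR, 0%; 484 at an unadjusted p under 0.05, none of them among the 10; DESeq2 called 0).

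Most of the 10 genes followed a 24 h rhythm. Sine and cosine terms were called in 8 of them in THRBWT and in 9 in THRBKO livers, against 33% and 28.9% of all tested genes, and 8 were called in both genotypes, against 21.5% of all. Pnpla3 passed in THRBKO but not in THRBWT livers, and its amplitudes differed by 0.17 (SE 0.600), which did not pass the test. Cideb was called in neither by edgeR (adjusted p = 0.0753 and 0.0572), though DESeq2 called it in THRBKO livers (adjusted p = 0.0340).

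Lpin1 and Dgat2, of the last steps of triglyceride synthesis, peaked around the change from light to dark. Lpin1, whose product, lipin 1, makes the diacylglycerol that DGAT enzymes use, had a wide swing, matched only by Pnpla3. Its 3 values in THRBWT livers were 28.8, 53.3 and 38.3 CPM at ZT2 and 469, 393 and 265 CPM at ZT10. In THRBKO livers they were 20.6, 66.5 and 46.2 CPM at ZT2 and 240, 298 and 293 CPM at ZT10. The mice at the high time lay above all those at the low time in both genotypes, and the ratio of means was 9.35 in THRBWT and 6.24 in THRBKO livers. The fitted amplitude was 1.40 in THRBWT and 1.25 in THRBKO on the log2 scale (SE 0.229 each), with peaks at ZT11.7 ± 0.623 and ZT12.1 ± 0.696 (SE). Its rhythm was called in both genotypes (adjusted p = 7.64e-05 and 7.78e-05).

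Dgat2 moved less, from 462 ± 50.8 CPM at ZT2 to 704 ± 34.9 CPM at ZT10 in THRBWT livers (SD, n = 3). In THRBKO livers it ran from 470 ± 58.9 CPM at ZT2 to 673 ± 113 CPM at ZT14. The peaks were fitted at ZT12.4 ± 0.698 and ZT13.3 ± 0.906 (SE), with amplitudes of 0.30 and 0.23, and both rhythms were called (adjusted p = 0.00102 and 0.00858). With sampling time as a factor in place of the sine and cosine terms, Dgat2 in THRBKO livers had an adjusted p of 0.0791.

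The lipases peaked at different times. Pnpla2 reached 116 ± 11.6 CPM at ZT10 in THRBWT livers (SD, n = 3) and fell to 56.3 ± 2.62 CPM at ZT22, a ratio of 2.06. In THRBKO livers it ran from 131 ± 7.63 CPM at ZT10 to 63.7 ± 10.5 CPM at ZT18, a ratio of 2.06 again. Its peak had the smallest error of the 10 genes, at ZT9.39 ± 0.316 and ZT9.65 ± 0.319 (SE). Abhd6 peaked at ZT16.8 ± 0.725 in THRBWT and ZT16.7 ± 0.746 in THRBKO livers, 7.43 h after Pnpla2 in the controls, with amplitudes of 0.35 and 0.34. The difference of the means between knockouts and controls ran from -5.85 CPM at ZT10, where the groups overlapped, to -12.9 CPM at ZT18.

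Pnpla3 encodes a droplet-bound protein of the same family that is raised by carbohydrate feeding. It was the least abundant of the 10, with 1 to 142 counts per library in THRBWT and 3 to 397 in THRBKO livers. The 3 controls at ZT10 had 0.488, 0.124 and 0.155 CPM, and at ZT18 they had 1.68, 0.786 and 3.49 CPM. At ZT22 the knockouts had 1.33, 0.699 and 10.4 CPM, and the last of them set the direction of the genotype effect: the log2 fold change was 0.28 with this mouse and -0.08 without it. The fitted amplitude was 1.36 (SE 0.424) in THRBWT and 1.53 in THRBKO livers, with rhythm p of 0.10 and 0.00243 after adjustment by the same edgeR test.

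**Figure D3:**
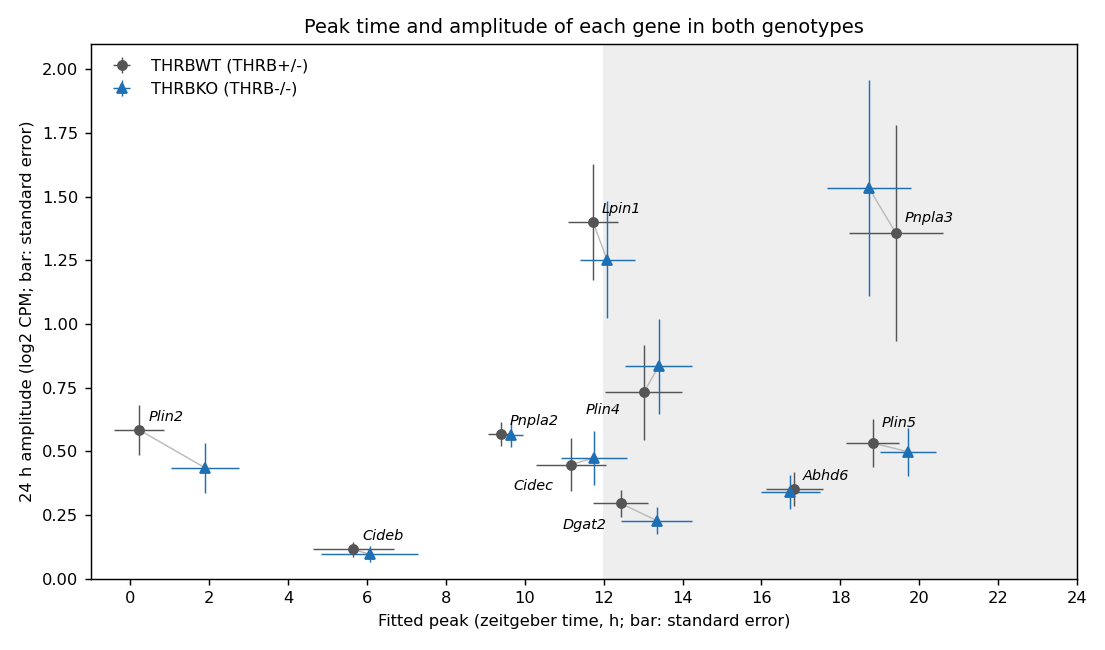
Fitted peak time (horizontal axis, h) and 24 h amplitude (vertical axis, log2 CPM) of each gene in THRBWT (circles) and THRBKO (triangles) livers, with standard errors as bars and the dark phase shaded. Lpin1, Dgat2, Cidec and Plin4 gather around lights off at ZT11.2 to ZT13.4, and Plin2 stands alone near lights on.

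The droplet coats did not peak together. Plin2 encodes perilipin 2, the main coat of hepatocyte droplets. The controls had 431, 426 and 479 CPM at ZT22 and 216, 219 and 165 CPM at ZT10, and the knockouts 436, 461 and 383 CPM at ZT6 and 277, 248 and 139 CPM at ZT14. High and low groups did not overlap in either genotype, and the ratios of means were 2.23 and 1.93. The peak was fitted at ZT0.229 ± 0.636 in THRBWT and ZT1.90 ± 0.853 (SE) in THRBKO livers, with adjusted p of 0.000261 and 0.00474 for the rhythm.

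Plin5 encodes the perilipin that tethers droplets to mitochondria. It stood at 40.5, 27.7 and 40.1 CPM at ZT10 and at 69.7, 70.2 and 76.0 CPM at ZT18 in THRBWT livers. In THRBKO livers it stood at 29.4, 31.2 and 33.4 CPM at ZT10 and at 74.6, 78.3 and 60.8 CPM at ZT14. High and low groups did not overlap, the ratios of means were 1.99 and 2.27, and the fitted peaks were ZT18.8 ± 0.672 and ZT19.7 ± 0.718 (SE). Plin4, a perilipin best known from adipocytes and muscle, starts 1.80 kb from the end of Plin5 on chromosome 17 and peaked at ZT13.0 ± 0.979 and ZT13.4 ± 0.859 (SE).

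Plin4 was scattered at ZT10, where single mice of each genotype had 20.9 and 23.5 CPM while the other 4 had 3.36 to 9.26 CPM. At ZT2 the controls had 4.88, 4.28 and 4.37 CPM and the knockouts 4.01, 3.91 and 2.02 CPM. Its amplitude was 0.73 in THRBWT and 0.83 in THRBKO livers (SE 0.188 each). The 17 exon bases that it shares with Hdgfl2 on the opposite strand are few beside its gene model.

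Cidec and Cideb encode CIDE proteins, which enlarge droplets by lipid exchange between them, Cideb also acting in VLDL lipidation. Cidec was low and rhythmic, from 2.86 ± 0.662 CPM at ZT22 to 5.25 ± 2.36 CPM at ZT6 in THRBWT livers (SD, n = 3), groups that overlapped, and from 2.65 ± 0.388 CPM at ZT2 to 5.15 ± 1.28 CPM at ZT14 in THRBKO livers, groups that did not. Its fitted peaks were ZT11.2 ± 0.896 and ZT11.8 ± 0.846 (SE), and with sampling time as a factor its THRBWT rhythm had an adjusted p of 0.0874. Cideb held the flattest profile of the 10, with values between 38.2 and 50.3 CPM in all 36 livers and amplitudes of 0.12 and 0.10. It shares 1136 exon bases with Nop9 on the opposite strand, and the libraries kept no strand, so reads of the pair cannot be told apart there.

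**Figure D4:**
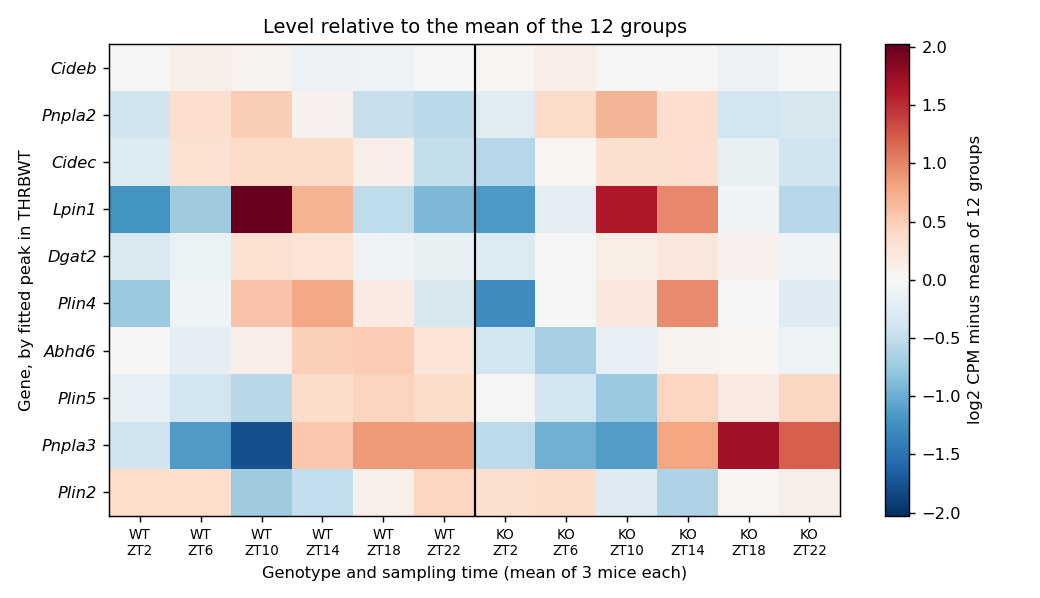
Level of each gene (rows, in the order of the fitted THRBWT peak) in the 12 groups of genotype and sampling time (columns, means of 3 mice), as log2 CPM minus the gene's mean over the 12 groups. Left (THRBWT) and right (THRBKO) show nearly the same order of colours, with Lpin1 and Pnpla3 the most strongly coloured and Cideb close to white.

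In THRBWT livers the 10 fitted peaks ran in the order Plin2, Cideb, Pnpla2, Cidec, Lpin1, Dgat2, Plin4, Abhd6, Plin5 and Pnpla3. The rhythms of Cideb and Pnpla3 were not called by edgeR in this genotype, nor that of Cideb in THRBKO livers, so these places are fitted values only. Cidec, Lpin1, Dgat2 and Plin4 were 0.553, 0.704 and 0.586 h apart, each less than the standard error of that gap, as were Plin5 and Pnpla3 at 0.580 h. The step from Plin4 to Abhd6 was 3.81 h (SE 1.22), and that from Pnpla3 to Plin2 4.83 h (SE 1.35). In THRBKO livers the order was the same but for Pnpla3 and Plin5, which changed places at a gap of 0.991 h (SE 1.28).

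No difference in amplitude or peak time between the genotypes passed the test. Amplitude differences were called in 0 genes (0%; 316 at an unadjusted p under 0.05, none of them among the 10). Differences in peak time were called in 0 of 3872 genes rhythmic in both genotypes (0%; 172 unadjusted, none of them among the 8 that could be tested). These tests used the cosinor on log2 CPM. The largest shift among the 8 was that of Plin2, 1.67 h later in THRBKO livers with 95% limits of -0.50 and 3.84 h. For Pnpla2 the limits were -0.66 and 1.17 h, and for Lpin1 -1.55 and 2.27 h. The amplitude of Lpin1 differed by -0.15, with limits of -0.81 and 0.51.

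Across the 12 group means, profiles of the 10 genes are described by Pearson's r, which the shared time of day alone can raise. Lpin1 and Dgat2 ran together (r = 0.93), as did Plin4 and Dgat2 (r = 0.91) and Plin5 and Pnpla3 (r = 0.89), while Plin2 ran opposite to Dgat2 (r = -0.91) and Lpin1 (r = -0.89). Among 9470 genes with a mean of at least 5 CPM, the profile most like that of Pnpla2 was that of Cpt1a, the carnitine palmitoyltransferase of mitochondrial fatty acid import (r = 0.99). Abhd6 was most like the cation transporter gene Slc22a3 (r = 0.98), Lpin1 like Slc16a12 (r = 0.97), Plin5 like Nacc1 (r = 0.98) and Cidec like Akr1c12 (r = 0.97). The closest to the others were Fam114a1 for Plin2, Rhbdd2 for Plin4, Snx4 for Cideb, Hspb1 for Pnpla3 and Slc37a4 for Dgat2, with r from 0.95 to 0.97. Second in likeness for Plin4 to Abhd6, in the order of the gene list at the start, were Dcun1d3, Pdlim1, Acaa1a, Washc5, March5, Elmod3, Arhgap21, Naa60 and Hes6, with r from 0.92 to 0.98.

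The rest of the pathway was covered by 49 further genes in 4 lists, of which 46 were tested. In the comparison adjusted for time 1 of them rose and 0 fell, beside 0.95% of all tested genes called, with a median log2 fold change of 0.01. The 1 was Tm6sf2, a factor in the lipidation of VLDL, at 39.5 ± 6.03 CPM in THRBWT and 48.4 ± 6.11 CPM in THRBKO livers (SD, n = 18; log2 fold change 0.30, SE 0.059, adjusted p = 0.00553), which was also called with times pooled (adjusted p = 0.0278). None of 15 genes of glycerolipid synthesis, 17 of lipolysis and 9 of droplet coat and formation was called in this fit. Log2 fold changes that did not pass in it included those of Hsd17b11, a droplet-bound dehydrogenase (0.16, adjusted p = 0.0826), and Fitm1, which helps lipid enter droplets (-0.42, adjusted p = 0.145).

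Of these 46 genes, 21 (45.7%) were rhythmic in both genotypes, against 21.5% of all genes: 9 of 15 in glycerolipid synthesis, 10 of 17 in lipolysis, 2 of 9 in the droplet list and 0 of 5 in VLDL export. G0s2, the inhibitor of adipose triglyceride lipase, had an amplitude of 1.40 in THRBWT and 1.18 in THRBKO livers and peaked at ZT17.8 and ZT18.3, 8.41 h after its target Pnpla2 in the controls. Pnpla5, a lipase of the same family, had the largest amplitude, 1.49 and 1.79, at 0.550 and 0.793 CPM. Lpin2, the second lipin, peaked at ZT10.0 and ZT11.4, and Gpat2, a glycerol phosphate acyltransferase, at ZT1.04 and ZT23.8. In the droplet list Fitm2 peaked at ZT14.1 and ZT13.2 and Hsd17b13 at ZT9.87 and ZT10.8.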

How the data were processed

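The sample labels gave each mouse its genotype, sampling time and letter. The 10 genes and the wider lists were chosen with earlier results of these data known.

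The authors made non-directional poly-A libraries, mapped the read pairs to GRCm38 (mm10) using HISAT2 and ran featureCounts. The deposited values are raw counts per gene, not normalized. Versions, annotation release and the treatment of reads with several matches are not given in the sources used here, so reads of close paralogs could be split or lost.

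Counts were tested here with edgeR 4.0.16 (R 4.3.3, TMM scaling, quasi-likelihood test) for the 17994 genes whose counts summed to 100 or more over all libraries, with Benjamini-Hochberg adjustment and a threshold of 0.05. The genotype effect was fitted with sampling time as a factor, without it, at single times and with an interaction. Rhythms were tested with sine and cosine terms of 24 h. Amplitude and peak time came from a cosinor on log2 CPM (prior count 2, fitted in R), with delta method errors. The 95% limits of log2 fold changes were computed in Python 3.11.15 with scipy 1.17.1. DESeq2 1.42.0, other scaling, filters and prior counts, RNA integrity from the study's supplement as a covariate, a replicate block and omitted mice were alternatives. The edgeR tests and the cosinor were first run on simulated data with known changes, the single-time test at ZT2 and the rhythm test in THRBWT alone. The other steps were not. Nothing in the sources used here says that the mice came from separate litters or cages, so p-values measure the spread between these mice.

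Named genes beyond the 10 are the called gene and the 2 largest amplitudes among rhythmic genes of each list, the 2 genes with the most similar group means for each of the 10 (1 of them is not reported here), and Hsd17b11 and Fitm1, which were chosen after their values were seen.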

Additional observations from a re-analysis of the deposited data

How the results depend on the processing

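With no filter on low counts, and with RNA integrity as a covariate, 1 of the 10 genes was called adjusted for time, in place of 2, Pnpla2 being the one lost. No filter gave 6, 6 and 15 genes at ZT6, ZT14 and ZT22. DESeq2 called 306 genes adjusted for time and, pooled, 99 genes with 1 of the 10. At an unadjusted p, 316 amplitude and 172 peak time differences passed. Leaving out 1 library or the mice of 1 letter gave 40 to 236 genes and 0 to 2 of the 10 adjusted for time. Leaving out the mice of 1 letter gave 16 to 24 genes pooled, 3109 to 4005 rhythmic in THRBWT (7 to 9 of the 10), 2343 to 3192 in THRBKO (5 to 6 of the 10), 0 to 5 peak time differences, 1 to 3 genes at ZT2, ZT10, ZT14 and ZT18, 1 to 2 at ZT6 and 1 to 4 at ZT22. Over the fits without 1 library or 1 letter, the sign turned for log2 fold changes that had not passed: adjusted for time Plin2 (-0.037 to 0.033), Plin4 (-0.19 to 0.018), Plin5 (-0.076 to 0.0097) and Pnpla3 (-0.13 to 0.57), and, over the fits without 1 letter, pooled Plin4 (-0.088 to 0.067), Plin5 (-0.058 to 0.023), Lpin1 (-0.19 to 0.12), Dgat2 (-0.0039 to 0.059) and Pnpla3 (-0.17 to 0.71). It also turned for amplitude differences of Plin4 (-0.084 to 0.40), Plin5 (-0.14 to 0.041), Cidec (-0.13 to 0.15), Pnpla2 (-0.045 to 0.057), Pnpla3 (-0.094 to 0.325), Dgat2 (-0.14 to 0.018) and Abhd6 (-0.052 to 0.047), and for peak time differences of Pnpla2 (-0.0058 to 0.671 h) and Abhd6 (0.069 h). With RNA integrity Plin2 stood at 0.00018. No label says that mice of the same time and letter shared a litter or day, though 6 of 18 such pairs had adjacent animal numbers and 15 had numbers within 10. Their deviations from the group means correlated above 0.1 in 9 of 18 pairs (median 0.10). In 16 of 18 the knockout's best match among the 3 controls of its sampling time was the mouse of the same letter. With the pairs as a replicate block 387 genes were called, with 2 of the 10 (Abhd6 and Pnpla2). The pair terms hold sampling time, so this fit is adjusted for time and there is no pooled fit with a block. Lpin1 stood at 0.20 in it. At ZT6, ZT18 and ZT22 the block gave 8, 8 and 9 genes. In the wider lists the block also called Pnpla8 (adjusted p = 0.0212) and Hsd17b11 (adjusted p = 0.0230). No block was fitted for amplitude, since the pair terms absorb the rhythm. Causes were not tested. Depth limits Pnpla3, with as few as 1 count in a library.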

Other observations

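Within a sampling time, mice that shared a letter but not a genotype had similar levels of some of these genes. At ZT2 the mice a, b and c had 28.8, 53.3 and 38.3 CPM of Lpin1 in THRBWT and 20.6, 66.5 and 46.2 CPM in THRBKO livers, the same order from lowest to highest. Dgat2 took the same order at ZT2, with 414, 515 and 458 CPM in THRBWT and 410, 528 and 471 CPM in THRBKO livers. So did Pnpla3, with 0.0319, 4.11 and 0.939 CPM in THRBWT and 0.0891, 1.93 and 0.923 CPM in THRBKO livers. At ZT10 the 2 highest values of Plin4, 20.9 and 23.5 CPM, both came from mice with letter c. Over the 10 genes and 6 times, the order of the 3 letters was the same in both genotypes in 22 of 60 cases, with 5 of 10 at ZT2, ZT6 and ZT10 and 2 to 3 of 10 at the other times. Lpin1 at ZT10 is a case where it was not, with 469, 393 and 265 CPM in THRBWT and 240, 298 and 293 CPM in THRBKO livers. These examples were chosen after their values were seen, and what the letters stand for is not given in the labels. The share of same orders over all genes is not given here. The 10 genes at a sampling time were measured in the same mice, so the 60 cases are not independent.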
